A study of Mus musculus with 4 samples.

Results

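Cytosolic ribosomal protein genes were followed across the cells of the mouse nasal mucosa. Members were the genes whose symbol starts with Rps or Rpl and goes on with a number (with an optional a, x, y or l), plus Rpsa, Rplp0, Rplp1 and Rplp2, if they held at least 50 unique molecular identifiers (UMIs, each standing for 1 captured RNA molecule) over the 4 libraries. The symbols matched 84 genes, of which 83 of the 27998 genes in the files passed. The gene left out, Rpl10l, held 2 UMIs, whereas the members closest to the limit, Rpl39l, Rpl3l and Rpl6l, held 488, 1574 and 1838. Of the members, 32 belong to the small subunit, 48 to the large subunit and 3 (Rplp0, Rplp1, Rplp2) to the stalk of the large subunit, and 6 are paralogs by name (Rps27l, Rpl22l1, Rpl7l1, Rpl39l, Rpl3l, Rpl6l). The 4 single-cell RNA sequencing libraries came from CD45+ cells of the nasal mucosa of C57BL/6 mice aged 8 weeks. CD45 marks leukocytes. There was 1 library for each group: Vehicle (vehicle without allergen), Vehicle-OVA (vehicle with ovalbumin, the allergen of a rhinitis model in sensitized mice), Ribavirin (the antiviral nucleoside ribavirin, given as a nasal spray) and Ribavirin-OVA (both). With 1 library per group there was no replicate, no test across samples could be run, and the 95% intervals given cover counting error only. The number of mice behind each library and any batch are not given in the labels, so OVA and the preparation of a library cannot be told apart.

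The cytosolic ribosome translates the messenger RNAs of the nucleus. Its proteins are made in near-equal amounts to assemble on ribosomal RNA into a small subunit, which decodes the message, and a large subunit, which forms the peptide bond. Their messenger RNAs are short, abundant and stable, and most begin with a C followed by an unbroken run of pyrimidines at the 5′ end (the 5′TOP motif), through which growth signals acting on mTOR set their translation. They take a large share of the messenger RNA of lymphocytes and a small share of that of mature neutrophils. Because each molecule is tagged at its poly(A) end, UMI counts of different genes depend on priming and mapping as well as on abundance, so levels were compared between libraries for the same gene and not between genes.

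The files held 10311 to 28277 barcodes and 91742940 to 171873110 UMIs per library, and 8817 to 25727 barcodes per library passed the filters on depth and mitochondrial UMIs. Between 80.6% and 88.3% of these cells were given to a class by UMIs of marker genes that are not members, and 11 classes with at least 50 cells in every library are described. Ptprc, which encodes CD45, stood at 145 to 2958 CPM (UMIs scaled to a class total of 1000000) in 10 of the classes and at 24.5 to 75.8 CPM in epithelial-like cells, a class marked by Epcam and keratins that the CD45+ label does not cover. Epithelial-like cells numbered 305, 137, 739 and 318 for Vehicle, Vehicle-OVA, Ribavirin and Ribavirin-OVA, the order in which values of the 4 libraries are given below. Any pair of libraries shared 57 to 174 barcodes.

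To show the transcripts behind the comparison, the bases around the transcription start of 6 members are printed, 3 that were among the most lowered with OVA (Rps18, Rps15a, Rpl26) and 3 among the least lowered (Rplp2, Rps26, Rpl37a). Each window, from RefSeq promoters of GRCm38.p6, holds the 15 bases before the annotated start and the first 15 of the transcript, and capitals mark the longest run of C and T that overlaps the 11 bases from 5 before to 5 after the first transcribed base.
Rps18: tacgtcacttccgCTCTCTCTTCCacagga
Rps15a: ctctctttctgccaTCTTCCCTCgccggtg
Rpl26: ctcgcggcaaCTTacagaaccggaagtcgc
Rplp2: tgcgtcagcgTCTTCCTTTCgccgccggac
Rps26: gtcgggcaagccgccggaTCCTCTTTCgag
Rpl37a: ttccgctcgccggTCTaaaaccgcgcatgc
The windows lie at chr17:33955651-33955680 on the reverse strand, chr7:118116133-118116162 on the reverse strand, chr11:68901551-68901580 on the forward strand, chr7:141447636-141447665 on the forward strand, chr10:128626492-128626521 on the reverse strand and chr1:72711245-72711274 on the forward strand. Runs of 7 or more pyrimidines stand at the start of both Rps18 and Rps15a, from the most lowered members, and of Rplp2 and Rps26, from the least lowered. The annotated starts of Rpl26 and Rpl37a have runs of 3. RefSeq promoters were found for 62 of the 83 members, 74 promoters in all, and a run of 7 or more overlapped the start in 39.2% of them against 14.1% of all 32851 promoters. The letters CTTTC, which may lie inside such a run, were read in the direction of the transcript, as the windows are printed. They stood within 20 bases on either side of the start in 25.7% against 5.49%. The letters CCGGAAG, a sequence that ETS family factors bind, occurred on either strand of the 300 bases around the start in 36.5% against 8.86%.

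First, the share of a class's UMIs that came from members was asked for. It was lower with OVA in 11 of 11 classes, both under vehicle and under ribavirin. Neutrophil-like cells (Csf3r, Cxcr2, Retnlg) had the lowest share without allergen and the lowest ratio of the share with OVA to that without, 8.35% in Vehicle, 2.49% in Vehicle-OVA, 6.63% in Ribavirin and 3.41% in Ribavirin-OVA. In the vehicle pair, Vehicle-OVA against Vehicle, the share was 0.298-fold (interval 0.297 to 0.298) of that without OVA, a log2 ratio of -1.75. In the ribavirin pair, Ribavirin-OVA against Ribavirin, it was 0.514-fold (interval 0.512 to 0.516), a log2 ratio of -0.96. The rank in the ribavirin pair was narrow, with ILC2-like cells at -0.94, and depended on how cells were weighted. From the mean of single-cell CPM, which gives each cell the same weight, neutrophil-like cells had -0.88 there and ILC2-like cells -1.03. Relative to the median of all genes tested in the class, which in the vehicle pair was itself below 0, the log2 ratios of neutrophil-like cells were -1.22 and -1.18, nearly the same in both pairs. On that scale ILC2-like cells had the largest difference, -1.55 and -1.34, from only 116, 93, 112 and 176 cells. The cells given to this class also differed with OVA in their markers. Their median UMIs of ILC2 markers were 13, 42, 18 and 66.5, and those of other classes' markers 4, 17, 5 and 21.5. The part of this in the difference was not tested.

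B cell-, ILC2- and T cell-like cells had the highest shares in Vehicle and in Ribavirin. Members made up 26.3%, 14.8%, 24.7% and 13.7% of the UMIs of T cell-like cells (Cd3d, Cd3e), with log2 ratios of -0.83 in the vehicle pair and -0.85 in the ribavirin pair. B cell-like cells (Cd79a, Ms4a1) held 32.4%, 18.6%, 27.6% and 18.1%, with ratios of -0.80 and -0.61. Both libraries with OVA thus lay well below both without. ILC2-like cells, innate lymphocytes marked by Il1rl1 and Gata3, held 32.1%, 13.9%, 29.1% and 15.1%, with ratios of -1.21 and -0.94. In NK-like cells (Ncr1, Klrb1c) the shares were 24.8%, 16.2%, 23.9% and 16.1%, with ratios of -0.62 and -0.57. Plasma cell-like cells, which secrete antibody and carry Sdc1 and Tnfrsf17, held 24.1%, 16.5%, 23.5% and 16.2%. Their ratios of -0.55 and -0.54 were among the smallest, and became -0.86 and -0.76 in the plasma cell-like cells without a UMI of the cell cycle genes Mki67, Top2a or Birc5.

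Among myeloid cells other than neutrophils, the ratios were close to those of lymphocytes. Macrophage-like cells (C1qa, Mrc1) held 17.7%, 9.15%, 16.9% and 9.63%, with ratios of -0.95 and -0.81. Monocyte-like cells (Vcan, Ly6c2) held 19.6%, 10.4%, 18.5% and 11.2%, with ratios of -0.92 and -0.73. Conventional (cDC-like) and plasmacytoid (pDC-like) dendritic cells, named from Flt3 and Zbtb46 and from Siglech and Ccr9, had similar shares to each other. The cDC-like cells held 24.01%, 13.6%, 23.7% and 14.4% and the pDC-like cells 25.1%, 14.1%, 23.4% and 13.9%, with ratios between -0.73 and -0.83. Epithelial-like cells showed the smallest difference, 10.03%, 7.81%, 9.27% and 7.86%, with ratios of -0.36 and -0.24. That value depended on how cells were weighted, since from the mean of single-cell CPM, which gives each cell the same weight, it was -0.84 in the vehicle pair and -0.62 in the ribavirin pair. In the plot of shares by class and library, the libraries without OVA lie above those with OVA in every class.

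**Figure D1:**
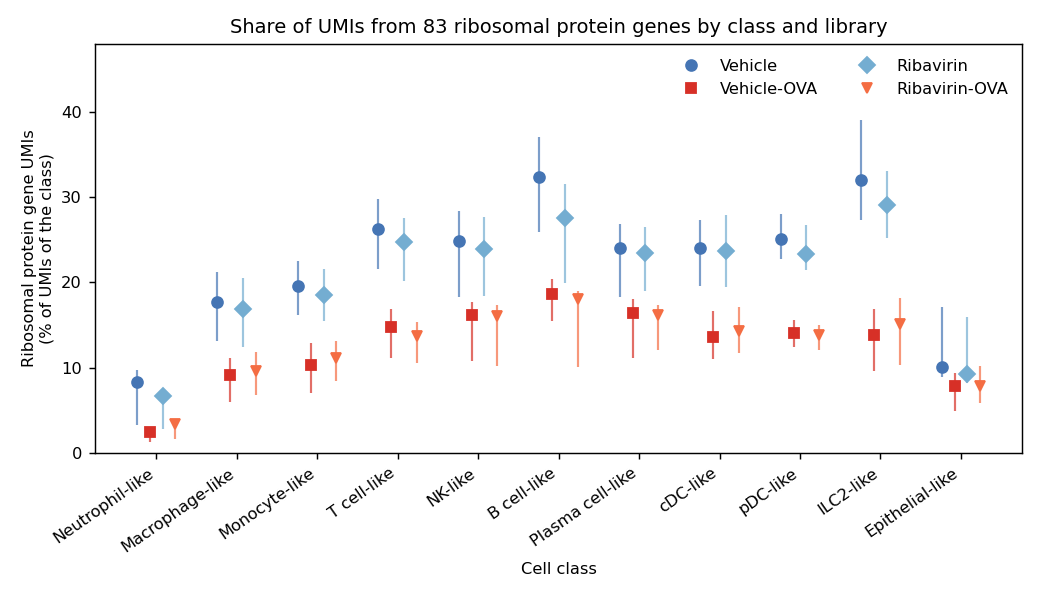
Share of UMIs from the 83 member genes (percent, vertical axis) in the 11 cell classes, 1 point per library from its pooled UMIs, with a vertical line from the lower to the upper quartile of the single-cell share. In every class both libraries without OVA lie above both with OVA, from neutrophil-like cells (8.35% in Vehicle, 2.49% in Vehicle-OVA) to B cell-like cells (32.4% and 18.6%).

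The quartile ranges of the single-cell share lay apart between the libraries of a pair in 19 of 22 class comparisons, the exceptions being epithelial-like cells in both pairs and neutrophil-like cells in the ribavirin pair. The single-cell share of T cell-like cells ran, from the lower to the upper quartile, from 21.6% to 29.8% in Vehicle and 20.1% to 27.6% in Ribavirin, against 11.1% to 16.9% in Vehicle-OVA and 10.5% to 15.4% in Ribavirin-OVA. In pDC-like cells it ran from 22.8% to 28.04% and 21.5% to 26.7% without OVA, against 12.4% to 15.5% and 12.03% to 14.95% with OVA. In neither class did the quartile ranges with OVA reach those without. Within classes, subsets chosen after their values were seen showed the same order. CD8 T cells (a Cd8a or Cd8b1 UMI and no Cd4 UMI) held 26.7%, 14.3%, 24.6% and 13.04%, and CD4 T cells 26.3%, 15.5%, 24.9% and 14.2%. Neutrophil-like cells with a UMI of Siglecf, a marker of tissue neutrophils in the nose as well as of eosinophils, held 9.76%, 4.02%, 8.59% and 4.41% and those without one held 7.17%, 2.29%, 5.73% and 3.02%. Those with one numbered 2850, 1018, 1983 and 675, and those without 4578, 10022, 4958 and 1926. In the vehicle pair, where this makeup shifted most, the log2 ratios were -1.28 with and -1.64 without a Siglecf UMI, beside -1.75 for the class. In the ribavirin pair they were -0.96 and -0.93. Macrophage-like cells with a UMI of Arg1, an arginine-degrading enzyme of alternatively activated macrophages, held 17.2%, 9.02%, 15.8% and 9.53%, and those without one 17.7%, 10.1%, 16.98% and 10.3%. Those with one numbered 130, 1386, 203 and 1080, and those without 3993, 287, 2718 and 276. The class was thus mostly without an Arg1 UMI in the libraries without OVA and mostly with one in those with OVA.

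Next, a shift in which classes a library held was separated from the level within classes. Over all cells in classes, members took 19.2% of the UMIs in Vehicle and 7.16% in Vehicle-OVA. With the class makeup of Vehicle-OVA and the class levels of Vehicle the share would be 14.5%, and with the makeup of Vehicle and the levels of Vehicle-OVA 10.5%. In the ribavirin pair the share went from 15.9% to 10.4%, and the same exchanges gave 16.6% and 9.76%. Both makeup and levels thus moved the vehicle pair, in which neutrophil-like cells went from 7428 to 11040, while in the ribavirin pair the makeup alone left the share no lower. Counted per cell, the other genes' UMIs were 1.01- to 2.30-fold of their level without OVA in the 22 class comparisons, and members' UMIs 0.336- to 1.26-fold. A lower share therefore came with fewer member UMIs per cell in 18 of the 22, and with more UMIs of other genes per cell in all 22. Some of the 18 were almost unchanged. Members' UMIs per cell were 0.981-fold in NK-like cells of the vehicle pair and 0.997-fold in ILC2-like cells of the ribavirin pair. In plasma cell-like cells they were 0.982- and 0.989-fold. In these, as in those with more member UMIs per cell, the lower share went with more UMIs of other genes.

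Other measures moved with OVA as well. The share of mitochondrial UMIs was 3.15%, 4.11%, 3.14% and 4.28% in T cell-like and 4.05%, 6.18%, 4.12% and 6.12% in B cell-like cells, and it was higher with OVA in every class and pair except neutrophil-like cells of the vehicle pair (1.81% and 1.48%). The summed CPM of S100a8 and S100a9, neutrophil genes that served as a measure of free RNA, was 0.262% to 2.76% of that in neutrophil-like cells in the 9 classes that were neither neutrophil-like nor monocyte-like. Among cells without a UMI of either gene, the members' log2 ratio was below 0 in every class with at least 10 such cells in both libraries. These were 3 classes of the vehicle pair and 9 of the ribavirin pair. In T cell-like cells it was -0.78 and -0.84. In the vehicle pair it was -0.68 in place of -0.95 in macrophage-like and -0.94 in place of -0.80 in B cell-like cells. With OVA, the macrophage-, T cell- and B cell-like cells of that pair numbered only 40, 26 and 15. The part of mitochondrial RNA, cell depth and the share of T cell-like cells close to the limit of the gate (12.5%, 32.5%, 14.5% and 32.7%) in the result was not tested.

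To ask how uniform the difference was by gene, the CPM of each member was compared between libraries within each class (log2 ratio with a pseudocount of 1 CPM, genes with at least 50 UMIs in the class over the 4 libraries). Across members and classes, 866 of 894 combinations in the vehicle pair and 841 of 894 in the ribavirin pair were below 0. The median of all genes was above 0 in 21 of the 22 class comparisons (0.16 to 0.54), the exception being neutrophil-like cells of the vehicle pair (-0.53). Relative to that median, the summed log2 ratios were -1.55 to -0.86 and -1.34 to -0.78.

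The share of members lower by at least 1.5-fold was above the share of all genes tested in every class and pair, by least in epithelial-like cells of the ribavirin pair. In neutrophil-like cells such members were 81 of 82 members in the vehicle pair, where 47% of all genes tested were, and 70 of 82 in the ribavirin pair, where 9.72% were. The high background of the vehicle pair was particular to that class. In T cell-like cells they were 61 of 82 members in the vehicle pair, where 10.2% of all genes tested were, and 64 of 82 in the ribavirin pair, where 9.79% were. In B cell-like cells they were 51 of 80 members in the vehicle pair, where 10.2% of all genes tested were, and 44 of 80 in the ribavirin pair, where 11.5% were. In NK-like cells they were 45 of 80 members in the vehicle pair, where 12.1% of all genes tested were, and 39 of 80 in the ribavirin pair, where 10.8% were. T cell-like cells thus had the most such members of these lymphocytes in both pairs. ILC2-like cells had 71 of 80 members in the vehicle pair, where 11.7% of all genes tested were, and 62 of 80 in the ribavirin pair, where 8.76% were. Plasma cell-like cells had 39 of 82 members in the vehicle pair, where 7.14% of all genes tested were, and 35 of 82 in the ribavirin pair, where 8.88% were. Most members were past 1.5-fold in the former class and a minority in the latter.

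Macrophage-like cells had 65 of 83 members in the vehicle pair, where 11.1% of all genes tested were, and 58 of 83 in the ribavirin pair, where 9.75% were. Monocyte-like cells had 63 of 82 members in the vehicle pair, where 10.4% of all genes tested were, and 49 of 82 in the ribavirin pair, where 7.14% were. In both, most members were lower under vehicle and under ribavirin. The cDC-like cells had 57 of 80 members in the vehicle pair, where 10.9% of all genes tested were, and 51 of 80 in the ribavirin pair, where 7.19% were. The pDC-like cells had 61 of 82 members in the vehicle pair, where 9.13% of all genes tested were, and 54 of 82 in the ribavirin pair, where 10.1% were. In their share of such members these 4 myeloid classes lay between the neutrophil-like and the NK-like cells in both pairs. Epithelial-like cells had 16 of 81 members in the vehicle pair, where 7.13% of all genes tested were, and 5 of 81 in the ribavirin pair, where 2.71% were. There 74 and 66 of 81 members were below 0, most by less than 1.5-fold. These counts came from pooled UMIs, whereas with the same weight for each cell the summed ratios of epithelial-like cells were -0.84 and -0.62. Summed over classes, 610 of 894 combinations of member and class were lower by at least 1.5-fold in the vehicle pair, where 13.9% of all combinations of gene and class were, and 531 of 894 in the ribavirin pair, where 8.58% were. Relative to the median of all genes these were 807 and 759, and the share of all genes was not computed on that scale.

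**Figure D2:**
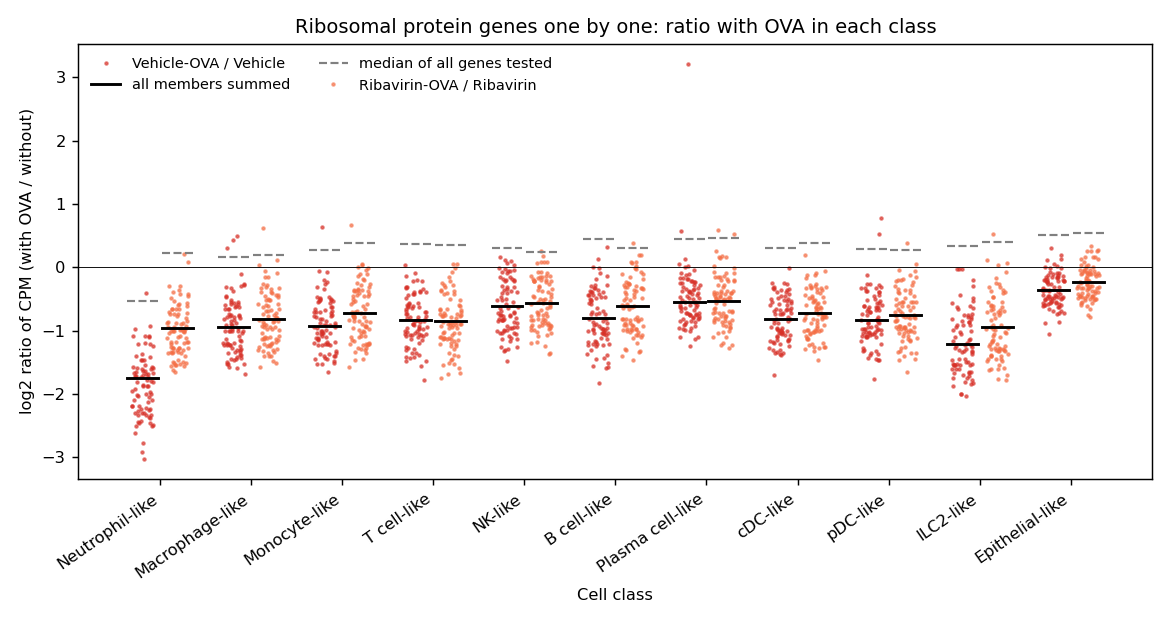
Log2 ratio of CPM with OVA to without OVA (vertical axis) for each member in each of the 11 classes, 1 dot per gene, in the vehicle pair (red) and the ribavirin pair (orange), with the summed members as a black bar and the median of all genes as a grey dashed line. Values are from pooled UMIs. Most dots lie below the dashed line in every class, with 81 of 82 members at least 1.5-fold lower in neutrophil-like cells of the vehicle pair and 16 of 81 in epithelial-like cells.

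Members of a class stayed close together. Of the 894 combinations, 776 in the vehicle pair and 766 in the ribavirin pair lay within 1.5-fold of the summed member ratio of their class. The share of all genes within 1.5-fold of a class value was not computed, so whether such closeness is particular to members is not shown. The SD of the log2 ratio over members was 0.26 to 0.53 and 0.26 to 0.50. Over all genes tested, many of which have fewer UMIs, it was 0.64 to 0.99 and 0.57 to 0.91. The value of 0.53 was that of plasma cell-like cells, where Rpl39l, with few UMIs, had a log2 ratio of 3.21. The number within 1.5-fold was lowest in neutrophil-like cells of the vehicle pair (60 of 82) and in ILC2-like cells (63 and 61 of 80) and highest in epithelial-like cells (79 and 81 of 81). The subunits had similar medians, in T cell-like cells of the vehicle pair -0.87 over small subunit and -0.85 over large subunit members.

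The departures from the class sum belonged to the same genes in class after class. Each member's ratio was set relative to the summed ratio of its class, and the median over the 11 classes was taken for the 80 members tested in all. This relative ratio ran from -0.78 (Rpl32) to 0.89 (Rpl7l1), averaged over both pairs, and 28 members lay within 0.2 of 0. Between the vehicle pair and the ribavirin pair, which share no library but share tissue and protocol, Pearson's r was 0.976 and Spearman's rho 0.975 (n = 80 genes, a description across genes, which are not independent replicates). Within single classes Pearson's r was 0.744 to 0.967 and Spearman's rho 0.781 to 0.974. The lowest Pearson's r was that of plasma cell-like cells, where Spearman's rho was 0.974. In all 11 classes and both pairs, 25 members lay below the class sum and 17 above it.

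**Figure D3:**
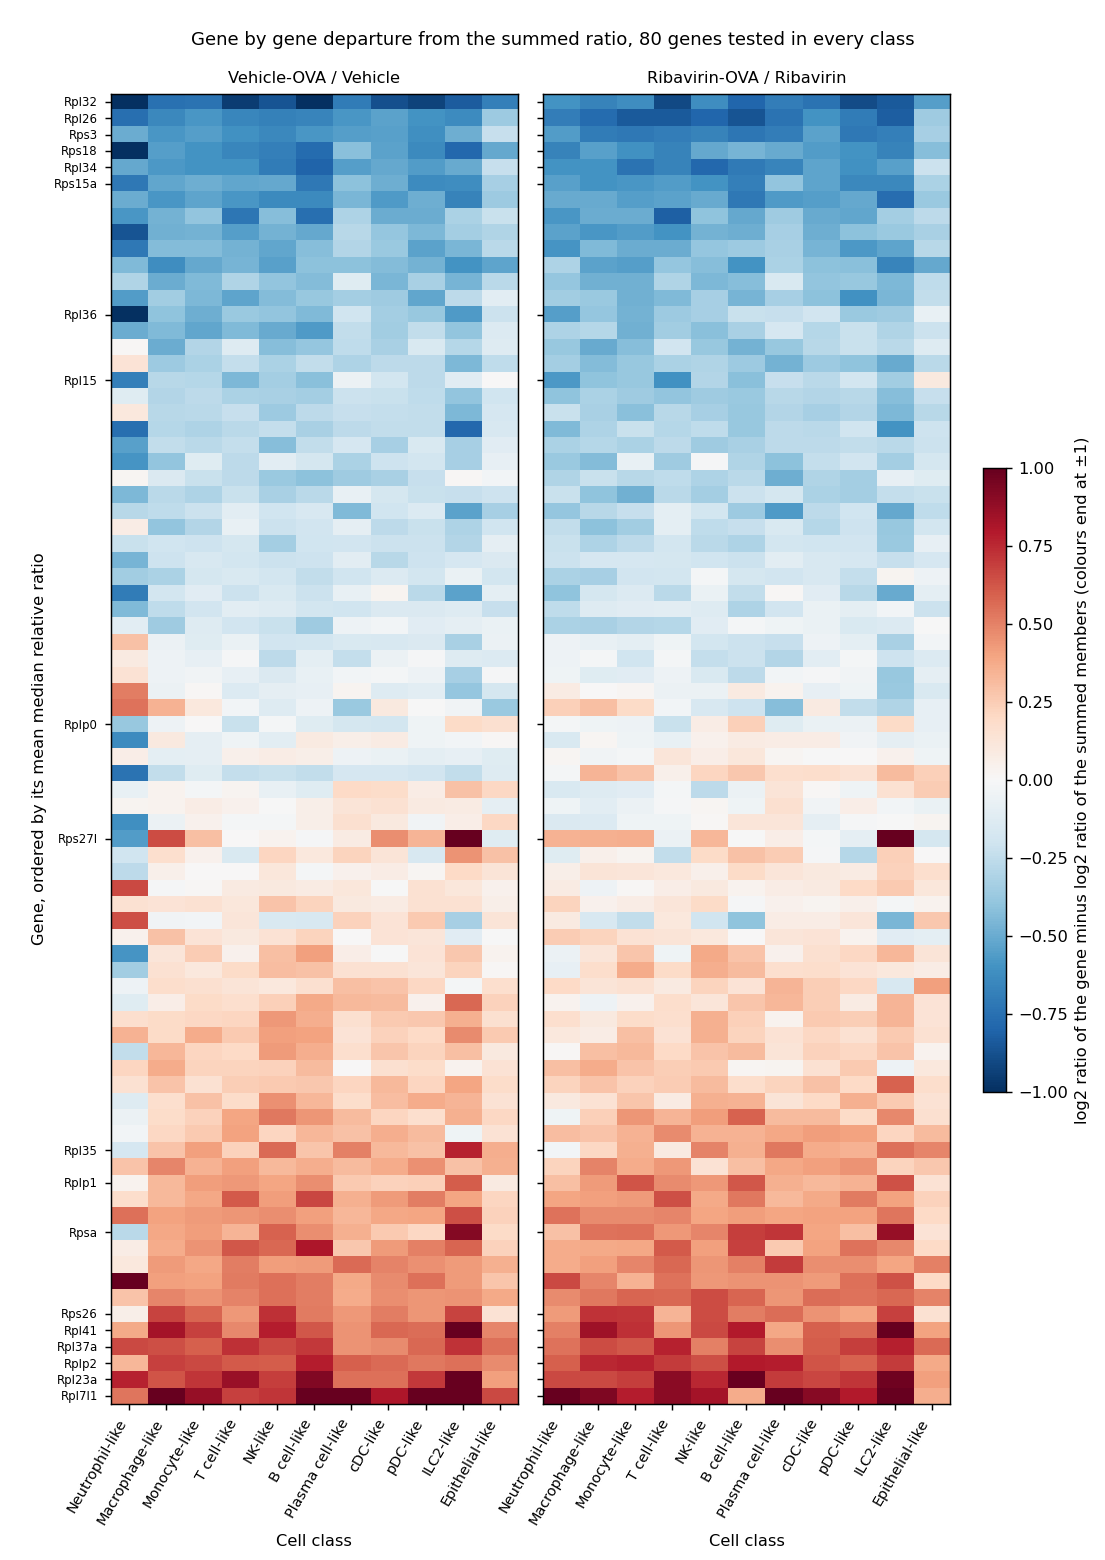
Log2 ratio of each of 80 members relative to the summed members of its class (colour, ends at -1 and 1), with genes as rows (the most and least lowered, the stalk proteins, Rpsa and the most variable by class named) and the 11 classes in the vehicle pair and the ribavirin pair as columns. Most rows keep their side of the scale from class to class, from Rpl32 with a mean relative ratio of -0.78 to Rpl7l1 with 0.89.

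**Figure D4:**
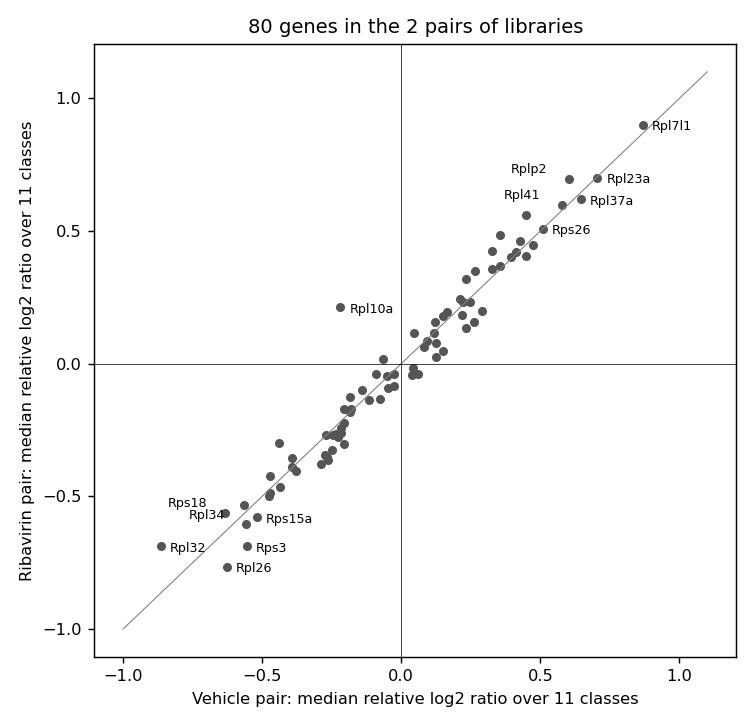
Median over classes of each member's relative log2 ratio in the vehicle pair (horizontal axis) against the ribavirin pair (vertical axis), 1 point per gene, with the line of equality. The 80 points lie along the line (Pearson's r 0.976), with 75 of the same sign in both pairs.

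Rpl32, a large subunit protein, was the member with the lowest log2 ratio in 11 of 11 classes of the vehicle pair. Over all kept cells it stood at 3621, 776, 2945 and 1209 CPM. Among T cell-like cells its level was 5018, 1462, 4683 and 1392 CPM, so that both libraries with OVA were at under 1 in 3 of either library without. The ratio was 0.291-fold (interval 0.284 to 0.298) in the vehicle pair and 0.297-fold (interval 0.291 to 0.304) in the ribavirin pair. In neutrophil-like cells it was at 1277, 156, 964 and 326 CPM, log2 ratios of -3.03 and -1.56, and in epithelial-like cells at 1826, 883, 1703 and 984 CPM, log2 ratios of -1.05 and -0.79. In the vehicle pair the gene was thus the lowest member both in the class whose summed ratio was lowest and in that where it was highest. Rpl26, a large subunit protein at the exit of the peptide tunnel, was the lowest in 6 of 11 classes of the ribavirin pair and Rpl32 in the other 5. Rpl26 in kept cells was at 2577, 672, 2156 and 877 CPM, and its median over classes was -1.45 in the vehicle pair and -1.47 in the ribavirin pair.

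The other most lowered members came from both subunits. Rps18 and Rps15a, both of the small subunit, had medians of -1.48 and -1.33 and of -1.41 and -1.31 in the vehicle and ribavirin pairs. Rps3, a small subunit protein at the entry of the messenger RNA that also acts in DNA repair, had -1.43 and -1.45, and Rpl34 of the large subunit -1.42 and -1.36. T cell-like cells held Rps18 at 4306, 1540.2, 4057 and 1414 CPM and Rps3 at 2845, 1053, 2774 and 954 CPM. For each of these, both libraries with OVA lay below both without.

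At the other end stood members with small ratios in most classes. Rpl23a, which binds the signal recognition particle near the tunnel exit, had 1657, 1696, 1580.1 and 1634 CPM among T cell-like cells (log2 ratios of 0.03 and 0.05), and the libraries with and without OVA overlapped. In neutrophil-like cells it was at 531, 269, 435 and 352 CPM, which was 0.507-fold (interval 0.494 to 0.520) in the vehicle pair and 0.810-fold (interval 0.779 to 0.843) in the ribavirin pair. Its median over classes was -0.13 in the vehicle pair and 0.03 in the ribavirin pair, and the latter was -0.34 relative to the median of all genes. Rpl41, the smallest ribosomal protein and the member with the most UMIs, was at 2805, 3055, 2651 and 2976 CPM in epithelial-like cells, higher in both libraries with OVA by less than the median of all genes. In neutrophil-like cells it was at 2407, 928, 1768 and 1288 CPM, lower in both. Its medians were -0.18 and -0.00064, those of Rpl37a of the large subunit -0.26 and -0.08, and those of Rps26, a small subunit protein at the exit of the messenger RNA, -0.31 and -0.10.

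Other members with many UMIs lay between these ends. Rps24 of the small subunit had medians of -0.99 and -0.97, and Rps29 of the small subunit -0.64 and -0.55. Rps24 had 7602, 3985, 6963 and 3612 CPM among T cell-like cells and, among neutrophil-like cells, 1776, 435, 1409 and 555 CPM. In both classes the 2 libraries with OVA were the lower ones.

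The stalk proteins, which recruit elongation factors to the ribosome, differed from each other. Rplp0, the base of the stalk, had medians of -0.92 and -0.78, close to the class sum, whereas Rplp1 and Rplp2, the acidic proteins that bind to it in pairs, had -0.50 and -0.30 and -0.25 and -0.06. T cell-like cells held Rplp0 at 3350.4, 1619.7, 3315 and 1577 CPM, Rplp1 at 5645, 4291, 5387 and 4144 CPM and Rplp2 at 3901, 3364, 3643 and 3276 CPM. Rplp0 in the vehicle and ribavirin pairs was thus at 0.483- and 0.476-fold of the level without OVA, and Rplp2 at 0.862- and 0.899-fold. In neutrophil-like cells all 3 were lower with OVA, with log2 ratios of -2.13 and -0.98 for Rplp0, -1.72 and -0.66 for Rplp1 and -1.42 and -0.36 for Rplp2. Rpsa, a small subunit protein that is also known as the laminin receptor, was at 2634, 1212, 2201 and 1928 CPM in kept cells, with medians of -0.49 and -0.18.

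**Figure D5:**
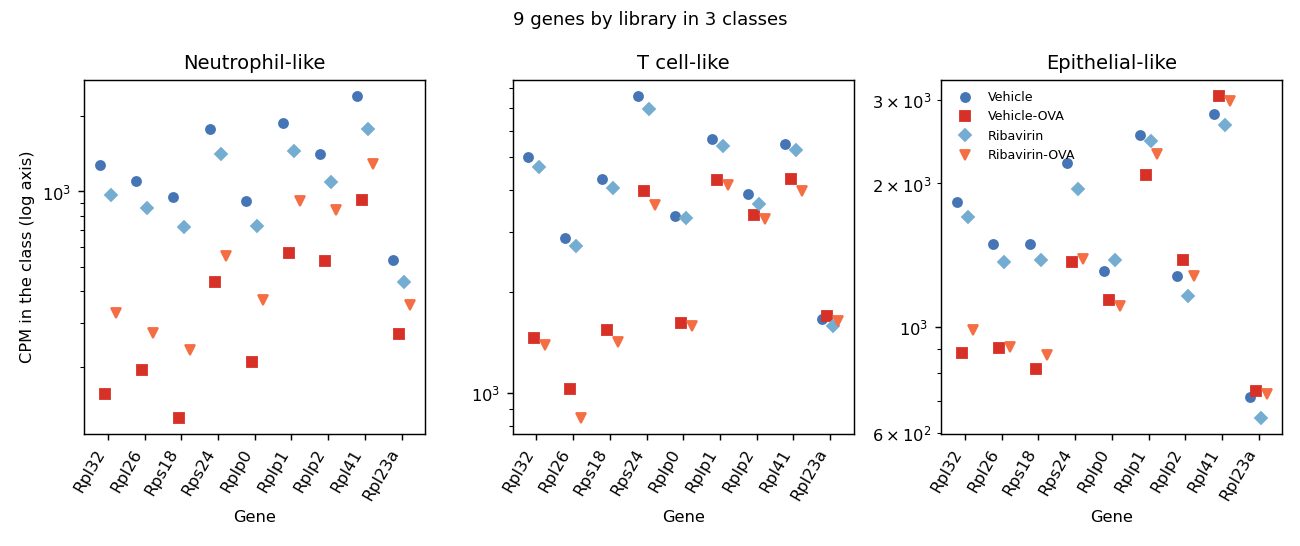
CPM (log axis) of 9 members in neutrophil-like, T cell-like and epithelial-like cells, 1 point per library (Vehicle, Vehicle-OVA, Ribavirin, Ribavirin-OVA). Among T cell-like cells Rpl32 had 5018, 1462, 4683 and 1392 CPM, whereas Rpl23a had 1657, 1696, 1580.1 and 1634 CPM.

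Among the 80 members tested in every class, those whose ratio varied most from class to class were Rpl15, Rpl36, Rps27l and Rpl35. Rpl15, a large subunit protein, was at 259.8, 47.3, 209 and 71.9 CPM in neutrophil-like cells (log2 ratios of -2.43 and -1.53) and at 377, 294, 359 and 325 CPM in epithelial-like cells (-0.36 and -0.14). Rpl36 of the large subunit had log2 ratios of -2.77 and -1.51 in neutrophil-like and -0.57 and -0.32 in epithelial-like cells, and Rpl35 of the large subunit -1.92 and -0.99 and 0.0027 and 0.25. All 3 were lowest, in the vehicle pair, in neutrophil-like cells. Rps27l, a paralog of Rps27 that p53 is known to induce, was at 318, 63.5, 216 and 141 CPM in neutrophil-like cells (-2.31 and -0.61) and at 213, 209.6, 174 and 188 CPM in ILC2-like cells (-0.03 and 0.11).

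The remaining paralogs by name gave mixed values. Rpl22l1, the paralog of Rpl22, followed the class sum, with medians of -0.84 and -0.73. Rpl7l1, a relative of Rpl7, was the least lowered of the 80 members tested in every class. Its medians were 0.10 and 0.12, which became -0.20 and -0.19 relative to the median of all genes. Its level in T cell-like cells was 46.2, 41.8, 51.6 and 53.4 CPM. The other 3 paralogs held few UMIs, and no direction is given for them. Rpl3l, known from muscle and tested in 4 classes, was at 13.6, 5.90, 10.5 and 11.2 CPM in neutrophil-like cells, and Rpl6l, tested in 7, at 6.51, 4.82, 4.31 and 4.24 CPM among T cell-like cells. Rpl39l, known from testis and tested in 3, was at 0.875, 16.4, 0 and 0.104 CPM in plasma cell-like cells, from 12, 70, 0 and 1 UMIs, high in 1 library. The 0 UMIs in Ribavirin allow up to 0.388 CPM (3 UMIs). Reads of ribosomal protein genes can also match their many pseudogenes. Of 12 pseudogene rows with at least 50 UMIs, 9 had a ratio below 1 in both pairs, for example Rpl13-ps3 at 0.196- and 0.289-fold, beside 0.271- and 0.508-fold for Rpl13 over all classes, and how the counting divided reads between such copies is not known here.

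Features of the gene that the choice of members did not use were set beside the relative ratio. Across the 80 members Spearman's rho with it was -0.14 for the length of the longest principal transcript, -0.03 for the GC content of the shortest principal transcript (40.6% to 60.8%) and -0.07 for the UMIs of the gene. The median was -0.03 over 32 small subunit and -0.03 over 45 large subunit members. Of the 60 members with a RefSeq promoter, the 28 with a run of 7 or more pyrimidines at the start had a median of 0.03, with 14 below 0, and the 32 without had -0.03, with 17 below 0. Members with CTTTC near the start (18) had 0.10 and those without (42) -0.02. Members with CCGGAAG (25) had 0.07 and those without (35) -0.05. The medians of these groups thus lay within a small part of the range of the relative ratio.

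Genes outside the rule that belong to the same machinery were then compared. Over the 11 classes, the median log2 ratio of members was -0.87 and -0.77 in the vehicle and ribavirin pairs. The 4 ribosomal proteins found that have other names had -0.92 and -0.82, with 29 and 28 of 44 gene and class combinations lower by at least 1.5-fold, beside 13.9% and 8.58% of those of all genes. Fau, which is made as a fusion to a ubiquitin-like protein, had -1.02 and -0.99, and Gnb2l1, the scaffold Rack1 of the small subunit, -0.29 and -0.07. The former lay below the members' median and the latter above it.

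Other genes with a 5′TOP motif (17) had a median of -0.25 and -0.13, with 54 and 36 of 187 combinations (28.9% and 19.3%) lower by at least 1.5-fold, against the same 13.9% and 8.58%, and were divided. Eef1b2 and Eef1d, exchange factors of elongation, had -0.87 and -0.87 and -0.97 and -0.71, and Tpt1, the translationally controlled tumor protein, -0.60 and -0.62. In contrast, Eef1a1 and Eef2, the elongation factors themselves, had -0.18 and -0.03 and 0.19 and 0.21, and Pabpc1, the poly(A)-binding protein, and Eif4b, an initiation factor, had 0.67 and 0.84 and 0.78 and 0.87. Ribosome assembly genes (23) had -0.02 and 0.15, with 40 and 15 of 245 combinations (16.3% and 6.12%) lower by at least 1.5-fold, close to all genes. Mitochondrial ribosomal proteins (77) had -0.35 and -0.31 with 270 and 208 of 829 (32.6% and 25.1%), and nuclear subunits of the respiratory chain (79), whose transcripts are as short as those of members, -0.50 and -0.44 with 374 and 307 of 811 (46.1% and 37.9%). The vehicle counts include neutrophil-like cells, where 47% of all genes were lower. Each of these list medians lay below the median of all genes in 11 of 11 classes of both pairs, except ribosome assembly, which did in 9. Across all genes of a class, longer transcripts had higher ratios (Spearman's rho 0.251 to 0.519 in the 22 class comparisons), and the part of transcript length in the members' ratios against other genes was not tested.

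Finally, ribavirin was compared with vehicle. Without OVA, the members' summed log2 ratio of Ribavirin to Vehicle was -0.33 to -0.02 over the 11 classes, lowest in neutrophil-like cells, with an SD over members of 0.05 to 0.12. With OVA, the ratio of Ribavirin-OVA to Vehicle-OVA was 0.46 in neutrophil-like cells and -0.11 to 0.13 in the other 10. In neutrophil-like cells the median of all genes was 0.62 in the same comparison, above the value of the members. Rpl10a, a large subunit protein singled out after its values were seen, was the lowest member of Ribavirin against Vehicle in 8 classes. It was at 1862, 811, 1334 and 964 CPM in macrophage-like cells and at 1078, 767, 773 and 774 CPM in epithelial-like cells, so that Vehicle was above the other 3 libraries in both.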

How the data were processed

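Single-cell RNA sequencing (10x Genomics, poly(A)-primed) was carried out on CD45+ nasal mucosa cells, isolated with magnetic beads per the labels and by flow sorting per the series description, with 1 library for each of the 4 groups. The deposited files held raw UMI counts per gene and barcode that the authors made with Cell Ranger 5.0.0 on mm10, per the submitters' processing notes, and the annotation release is not given in the sources used here.

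Barcodes were kept if they held 500 UMIs and 200 genes or more, with a mitochondrial share under 10%. A cell was given to the class that held at least 50% of its marker UMIs, with at least 3 UMIs from at least 2 markers. The markers were written down first, and the limits of the gate were set after the values were seen. Trac, Trbc1 and Trbc2 were not in the files. S100a8 and S100a9 were kept out of the gate. No doublet caller was run. The gate left out cells in which no class held 50% of the marker UMIs, so other cells with mixed markers could pass. In T cell-like cells the median marker UMIs of the class and of other classes were 15 and 4 in Vehicle. In Vehicle-OVA they were 13 and 6.5. An alternative left out the top 5% of cells by UMIs. For each class of a library the UMIs were added up and scaled to a total of 1000000 (CPM), and log2 ratios of CPM were taken with a pseudocount of 1 CPM for genes with at least 50 UMIs in the class over the 4 libraries. Intervals (95%, exact binomial) cover counting error only. With 1 library per group no p-value was computed, and "lower" refers to a ratio past 1.5-fold where a count of genes is given. The scripts were tested on simulated data.

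The member genes, gene lists and comparisons were chosen with earlier results of these data known. Members were named by rule, as Rpsa and the stalk proteins, the 5 with the most UMIs, the 6 lowest and 6 highest by relative ratio, the 4 with the widest range over classes, and the paralogs. An item that the rule or a gene list would name is left out where it is not reported here. Rpl10a, the subsets of classes and the members printed as sequences were chosen after their values were seen. Transcript lengths and GC content came from the reference annotation, and promoters from RefSeq. Python 3.11.15, numpy 2.4.6, scipy 1.17.1, pandas 2.3.3 and matplotlib 3.10.9 were used.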

Additional observations from a re-analysis of the deposited data

How the results depend on the processing

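The results were recomputed under 16 other settings of the filters on cells, the gate, the weighting of cells, the scaling, the pseudocount and the filter on low genes. Every class that could be computed had a lower share of member UMIs with OVA under each of them, with 9 of 9 classes left under a limit of 5% mitochondrial UMIs. The combinations of member and class lower by at least 1.5-fold numbered 485 to 807 in the vehicle pair and 432 to 759 in the ribavirin pair. The highest were relative to the median of all genes. The share of all combinations of gene and class was not computed under these settings. Of 346 class ratios, 207 moved by more than their counting interval and none changed sign. Relative to the median of all genes, the vehicle ratio of neutrophil-like cells moved from -1.75 to -1.22. That of epithelial-like cells, -0.36, became -0.18 under the limit of 5%, -0.85 after thinning and -0.86 relative to the median. The cause was not tested. Restricting other classes to cells free of S100a8 and S100a9 UMIs left no class with 50 cells in each library, so a minimum of 10 cells in the libraries of a pair was used, chosen after seeing the data. Of these ratios, the one that moved most was that of epithelial-like cells in the ribavirin pair, -1.08 from 19 and 23 cells. No paired analysis was possible because each group is 1 library. The counting intervals do not cover differences between libraries, which the design cannot measure.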

Other observations

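Cells that passed the filters but were in none of the 11 classes also had a lower share of member UMIs with OVA, at 21.6%, 10.8%, 17.5% and 10.5% for the Vehicle, Vehicle-OVA, Ribavirin and Ribavirin-OVA libraries. Macrophage-like cells with a UMI of Cxcl13, a chemokine that attracts B cells, numbered 204, 21, 107 and 11, and members took 14.5%, 7.68%, 14.6% and 9.59% of their UMIs. Of the pseudogene rows, Rps26-ps1 stood at 0.625-fold with OVA in the vehicle pair and 1.37-fold in the ribavirin pair over all classes, beside 0.516- and 0.927-fold for Rps26.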
